A study of Arabidopsis thaliana with 24 samples.

Results

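The response of jaz9-1 seedlings to 2e, a stereoisomer of the bacterial toxin coronatine, was described across all genes, from 6 of the 24 libraries of the series. These were the 3 libraries of jaz9-1 kept with mock solution and the 3 libraries of jaz9-1 kept with 2e, chosen by the genotype and compound in their labels and by no measured value. jaz9-1 is an Arabidopsis line in the Col-0 background with a T-DNA insertion in JAZ9, and both groups carry it. Seedlings were 6 days old, were treated in liquid medium for 8 h, and were pooled at 5 to 8 seedlings a library. A dose of 1 µM stands in the text of the series and in no sample label. The other libraries hold Col-0 with mock or 2e, and both genotypes with coronatine (2) or with a derivative of it that the labels call 12. They enter below only where the response to 2e in jaz9-1 was set against them.

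Jasmonates act through COI1, the F-box protein of a ubiquitin ligase, which binds the hormone together with a JAZ repressor and marks that repressor for degradation. Once JAZ proteins are gone, MYC2 and related factors switch on wound and insect defence genes, and ORA59 and ERF1, which also need ethylene signalling, switch on defensins and other genes used against fungi. JAZ genes are themselves targets of MYC2, which closes a feedback loop. Coronatine copies the active hormone jasmonoyl-isoleucine. The question for these libraries was which genes 2e still changes in a plant with a disrupted JAZ9.

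The 6 libraries held 6825267 to 12966329 counts with mock and 9898016 to 17295316 with 2e, and 20109 genes passed the count filter. Organelle genes took 1.31 to 1.52% of the counts with mock and 1.61 to 1.86% with 2e, so the groups did not overlap in this share, although 0 of 113 organelle genes passed edgeR's test (15 at an unadjusted p below 0.05, 0 with DESeq2). Their median log2 fold change was 0.17. Of all 20109 genes tested, 1933 had an unadjusted p below 0.05 in edgeR. That is the background for such counts of 2e against mock in jaz9-1, here and below. Root endodermis and hair markers summed to 292 to 359 counts per 1000000 (CPM) with mock and to 275 to 402 CPM with 2e. Shoot and leaf epidermis markers summed to 437 to 504 CPM with mock and to 487 to 514 CPM with 2e. None of the 14 root and 9 shoot markers was at 0, and 0 of them passed with edgeR or DESeq2 (1 root and 2 shoot markers at an unadjusted p below 0.05). The part of organ makeup in the results was not tested beyond these values, and in whole seedlings fewer cells of a type and less RNA per cell cannot be told apart.

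JAZ9 itself was read in every library. Its level in jaz9-1 was 3.62, 2.26 and 2.21 CPM with mock and 5.15, 7.46 and 5.79 CPM with 2e. In Col-0 it was 4.79, 4.91 and 3.01 CPM with mock and 16.6, 24.1 and 25 CPM with 2e. The jaz9-1 libraries with 2e thus all lay below the Col-0 libraries with 2e, whereas the mock libraries of the genotypes overlapped. Coronatine brought JAZ9 to 37.4, 41.6 and 52.1 CPM in jaz9-1 and to 169, 185 and 185 CPM in Col-0. Counts were made per gene, so they do not show whether a read came from before or behind the insertion, and a level above 0 says nothing of a working protein. JAZ9 counts rose with 2e in jaz9-1 by 1.25 on the log2 scale (SE 0.25, FDR = 0.00243, edgeR). The call was lost when the 6 libraries were fitted without the other 18 (FDR = 0.191).

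2e changed few genes in jaz9-1, and most of them upward. At a false discovery rate (FDR) below 0.1, 348 of 20109 genes were higher (1.73%) and 49 were lower (0.244%) than with mock, by the quasi-likelihood test of edgeR. With a change of at least 2.5-fold as well, 80 genes were upregulated (0.398%) and 3 were downregulated (0.0149%). Of the 348 higher genes, 212 changed less than 2-fold and 136 changed 2-fold or more. Of the 49 lower genes, 43 changed less than 2-fold. All 3 libraries with 2e lay above all 3 mock libraries for 324 of the 348 higher genes, against 7.61% of all genes tested. They lay below all mock libraries for 45 of the 49 lower genes, against 6.32%. The genes were called on these same values, so their separation follows largely from the calls and is no further support for them. The count of lower genes rested on single libraries, since it was 21 without jaz9-1 mock replicate 2.

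Among the JAZ repressors, 6 of 12 rose and none fell, with a median log2 fold change of 1.2 over the 12, against 0.00 over all genes. JAZ1, a repressor induced early by jasmonate, stood at 30.8, 25.4 and 28.8 CPM with mock and at 98.8, 110.5 and 103 CPM with 2e. That was a log2 fold change of 1.88 (SE 0.10, FDR = 1.52e-14), with replicate libraries close together in both groups. JAZ5 went from 2.32, 1.95 and 1.44 CPM to 8.75, 6.77 and 11.0 CPM, the largest called change of the family (2.25, SE 0.22). JAZ6, JAZ3 and JAZ2 rose by 1.2, 1.21 and 0.98 on the log2 scale. JAZ10, which desensitizes plants to the hormone, did not pass the test at 0.59 (95% interval 0.23 to 0.96, FDR = 0.117), although its groups did not overlap. JAZ7 and JAZ8 were counted at under 2 CPM in both groups on average, and their log2 fold changes of 1.90 and 1.73 did not pass. Across 15 alternative settings 5 to 8 genes of the family were called higher, 8 of them by DESeq2.

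The receptor side showed no call. COI1, its partners CUL1 and SKP1, the adaptor NINJA and the TOPLESS corepressors made a list of 9 genes with a median log2 fold change of 0.01. COI1 had the lowest value among them, at -0.49 (95% interval -0.85 to -0.12, FDR = 0.265), with all 2e libraries below all mock libraries. Of the 9 genes, 0 passed with edgeR, 2 had an unadjusted p below 0.05 and 0 passed with DESeq2. Among the transcription factors that JAZ proteins hold back, MYC2 rose from 24.5, 21.4 and 19.4 CPM to 54.7, 60.6 and 58.5 CPM (log2 fold change 1.42, SE 0.13, FDR = 2.33e-09). JAM1, a related repressor of the response, rose by 0.82 (FDR = 0.00199). MYC3 and MYC4, which share targets with MYC2, had values of -0.18 and -0.02, and neither passed.

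Genes of jasmonate synthesis were among the calls. Of 15 genes tested on the pathway, 9 were higher and none lower, with a median of 0.67. LOX2, the lipoxygenase that makes the first intermediate, stood at 153, 176 and 194 CPM with mock and at 619, 778 and 469.7 CPM with 2e (1.83, SE 0.13). AOS, the allene oxide synthase, went from 46.0, 55.8 and 50.3 CPM to 207, 257 and 176 CPM (2.07, SE 0.12, FDR = 6.21e-14). The 3 mock libraries and the 3 libraries with 2e were far apart for both genes. The cyclases AOC1 and AOC2 rose by 2.2 and 1.99, and AOC2 reached 864 to 1250.5 CPM. OPR3 and OPCL1, which act in the peroxisome, rose by 1.02 and 1.04, and JAR1, which joins jasmonate to isoleucine, did not pass at 0.11 (95% interval -0.18 to 0.40). Genes that remove the hormone moved as well. Of 7 genes of jasmonate turnover 4 were higher. Among them was CYP94C1, which oxidizes jasmonoyl-isoleucine, at 1.45, 1.05 and 1.05 CPM with mock and 6.32, 5.93 and 5.34 CPM with 2e (2.33, SE 0.39, FDR = 0.000248). ILL6 and IAR3, amidohydrolases that split the conjugate, rose by 1.73 and 0.77.

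**Figure D1:**
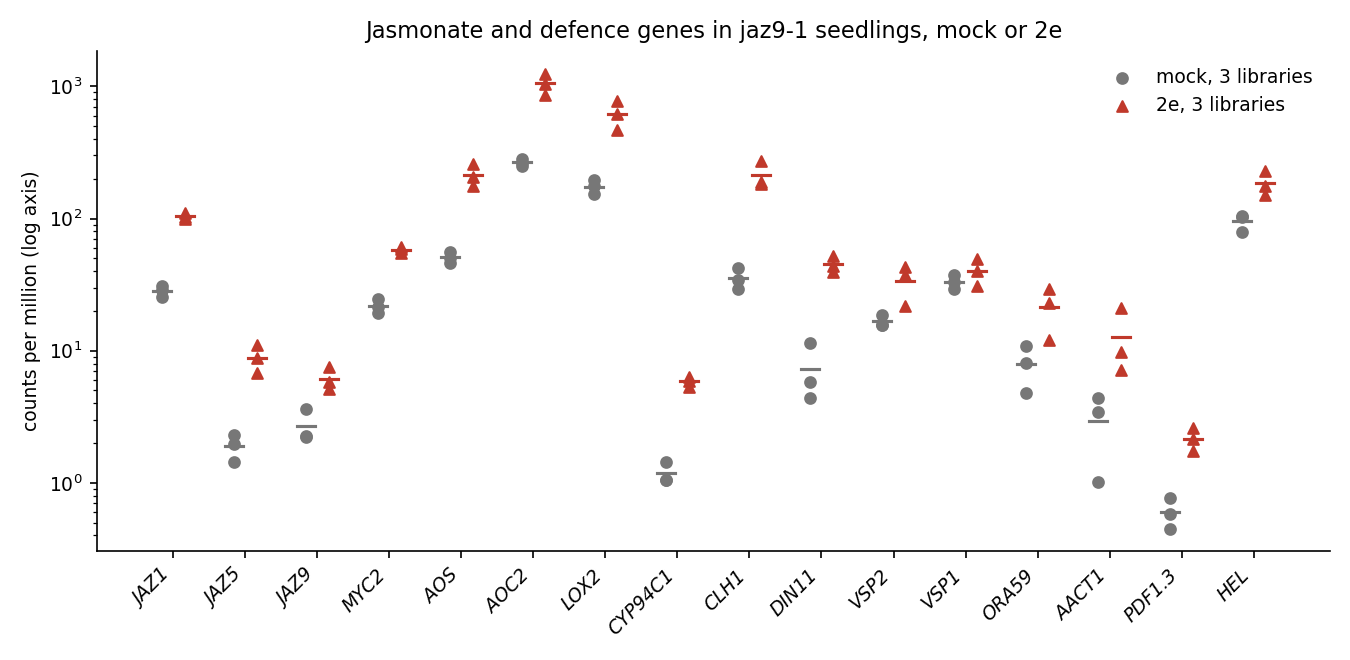
Level of 16 jasmonate and defence genes in each jaz9-1 library, in CPM on a log axis, with grey circles for mock, red triangles for 2e and bars for the group mean. For JAZ1 the triangles sit at 98.8 to 110.5 and the circles at 25.4 to 30.8, while for VSP1 the groups overlap.

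Outputs of the MYC branch differed in size of change. CLH1, a chlorophyllase long used as a coronatine-induced gene, went from 29.2, 42.3 and 34.2 CPM to 182, 274 and 187 CPM (2.59, SE 0.16, FDR = 4.75e-13). DIN11, an oxygenase gene also induced in darkness, went from 5.79, 11.5 and 4.41 CPM to 39.3, 52.3 and 43.7 CPM (2.58, SE 0.25). The factor NAC3 rose by 2.48 and the cystine lyase CORI3 by 1.22. By contrast VSP1, a vegetative storage protein gene that is a classic target of MYC2, stood at 37.6, 29.5 and 32.9 CPM with mock and at 30.9, 40.2 and 49.2 CPM with 2e. The groups overlapped, and the log2 fold change of 0.29 (95% interval -0.06 to 0.63, FDR = 0.644) did not pass, although it did with no count filter (0.28, FDR = 0.0965). Its neighbour and paralog VSP2 rose from 18.7, 15.7 and 15.7 CPM to 21.7, 37.2 and 42.7 CPM (1.05, SE 0.22, FDR = 0.00462). Of 11 genes tested on this list 5 were higher and none lower. In either direction 9 of the 11 had an unadjusted p below 0.05, and with no count filter 8 were called higher. Reads of the VSP paralogs may be shared between them.

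On the ERF/ORA branch, 5 of 15 genes were higher and none lower, with a median of 0.96. ORA59, the factor at its head, stood at 8.11, 10.9 and 4.79 CPM with mock and at 29.1, 23.0 and 12.1 CPM with 2e (1.4, SE 0.30, FDR = 0.00614). The lowest library with 2e lay just above the highest mock library. ERF2, a related factor, rose by 1.32 (FDR = 0.00325), and ERF1 was counted at 0, 1.28 and 0 CPM with mock and 0, 1.67 and 0.393 CPM with 2e, too low to show a difference. AACT1, an acyltransferase gene of the same branch, went from 1.01, 4.36 and 3.45 CPM to 21.1, 7.18 and 9.78 CPM (1.96, SE 0.39, FDR = 0.00236). HEL, which encodes a chitin-binding hevein-like protein, rose by 0.96. The plant defensins stayed low. PDF1.3 stood at 0.579, 0.451 and 0.767 CPM with mock and at 2.14, 1.74 and 2.59 CPM with 2e (1.87, SE 0.54, FDR = 0.0919), and the call was lost without any 1 of the 6 libraries, at FDR values from 0.112 to 0.344. PDF1.2 stood at 0.434, 1.43 and 0.863 CPM with mock and at 2.33, 4.25 and 4.44 CPM with 2e, and the groups were apart, but the change of 1.91 did not pass (95% interval 0.59 to 3.24, FDR = 0.198). With DESeq2 it did (FDR = 0.0963). The PDF1 genes are near copies, so their counts may not be separate. Of 20 genes of ethylene synthesis and signalling 0 passed with edgeR, 1 had an unadjusted p below 0.05, 0 passed with DESeq2, and their median was 0.10.

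The stretch before the start of 5 genes shows which letters of known defence motifs lie there. The G-box (CACGTG, its own reverse complement) is bound by MYC2, and the GCC-box (GCCGCC or its reverse complement) by ERF factors such as ORA59. Sequences are the 300 bases before the RefSeq start of the gene in TAIR10.1, 5′ to 3′ on the strand of the gene, with the motif matches in capitals. The genes are the ERF/ORA branch head, 2 of its outputs, a MYC branch output, and AT4G37850, a bHLH factor whose response is set against Col-0 below. They lie at chr1:1882607-1882906 (plus strand, ORA59), chr5:17907639-17907938 (minus, PDF1.2), chr5:24608305-24608604 (plus, AACT1), chr3:18393447-18393746 (plus, DIN11) and chr4:17797902-17798201 (minus, AT4G37850).
ORA59: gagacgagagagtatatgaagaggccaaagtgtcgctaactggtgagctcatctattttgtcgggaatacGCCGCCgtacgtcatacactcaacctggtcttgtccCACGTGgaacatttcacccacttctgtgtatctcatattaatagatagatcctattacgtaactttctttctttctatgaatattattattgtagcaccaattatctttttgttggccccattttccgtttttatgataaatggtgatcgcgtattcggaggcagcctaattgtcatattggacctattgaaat
PDF1.2: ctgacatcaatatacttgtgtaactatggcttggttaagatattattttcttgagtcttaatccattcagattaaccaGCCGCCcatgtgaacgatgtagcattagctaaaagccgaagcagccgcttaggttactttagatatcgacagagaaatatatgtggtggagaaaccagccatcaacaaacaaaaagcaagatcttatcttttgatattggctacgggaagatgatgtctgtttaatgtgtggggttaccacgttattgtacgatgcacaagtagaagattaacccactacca
AACT1: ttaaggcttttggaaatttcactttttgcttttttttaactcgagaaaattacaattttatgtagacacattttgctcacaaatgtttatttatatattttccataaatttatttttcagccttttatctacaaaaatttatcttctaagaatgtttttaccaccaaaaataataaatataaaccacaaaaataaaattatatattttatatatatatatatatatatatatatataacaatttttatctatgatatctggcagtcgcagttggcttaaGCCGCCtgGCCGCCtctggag
DIN11: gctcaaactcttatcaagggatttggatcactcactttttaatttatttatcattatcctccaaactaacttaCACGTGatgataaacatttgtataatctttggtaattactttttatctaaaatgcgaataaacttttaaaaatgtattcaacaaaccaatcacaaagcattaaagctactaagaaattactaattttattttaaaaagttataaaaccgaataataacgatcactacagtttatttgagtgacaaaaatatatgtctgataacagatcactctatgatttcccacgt
AT4G37850: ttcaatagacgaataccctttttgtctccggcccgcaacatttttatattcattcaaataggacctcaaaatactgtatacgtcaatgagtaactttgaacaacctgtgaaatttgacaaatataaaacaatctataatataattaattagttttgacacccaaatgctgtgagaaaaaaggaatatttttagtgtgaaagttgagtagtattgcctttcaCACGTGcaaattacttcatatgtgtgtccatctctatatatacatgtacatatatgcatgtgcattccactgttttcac

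ORA59 holds both motifs, with the GCC-box beginning 230 bases and the G-box 194 bases before its start. PDF1.2 holds a GCC-box 222 bases before its start, and AACT1 holds a pair of them, at 21 and 13 bases. DIN11 and AT4G37850 hold 1 G-box each, at 227 and 79 bases. The 5 genes shown thus all hold a motif, which is not so for most of the other genes searched. Among those, AOS holds a G-box beginning 6 bases before its start. JAZ1, JAZ5, JAZ9, MYC2, AOC1, AOC2, LOX2, CLH1, PDF1.3, HEL, LDOX, CYP79F1 and AT1G15125 hold neither motif in this stretch. Over all tested genes with such a stretch, 7.97% of 19921 hold a G-box and 2.37% a GCC-box. Among the 347 higher genes that have one, 17.3% hold a G-box and 2.88% a GCC-box. Among the 80 upregulated genes the shares are 17.5% and 7.5%, and among the 49 lower genes 6.12% and 4.08%. On the ERF/ORA list 5 of 15 genes hold a GCC-box and 3 a G-box, while of the 12 JAZ genes 4 hold a G-box and none a GCC-box. A G-box lies before 1 of 17 aliphatic (5.88%) and 1 of 16 indolic (6.25%) glucosinolate genes. It lies before 2 of 15 genes of jasmonate synthesis and 4 of 15 anthocyanin genes. These shares describe letters in a window and were not tested.

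Glucosinolates are sulfur-rich defence compounds of the cabbage family, made from methionine (aliphatic) or tryptophan (indolic). Aliphatic glucosinolate genes moved together, if modestly: 15 of 17 were higher and none lower, with a median of 0.61 and a range of 0.18 to 1.00. BCAT4, which starts methionine chain elongation, stood at 152, 177 and 177 CPM with mock and at 276, 321 and 299 CPM with 2e (0.82, SE 0.09, FDR = 3.86e-07). MAM1, the chain-elongating synthase, went from 135, 158 and 158 CPM to 266, 324 and 221 CPM (0.85, SE 0.12). All libraries with 2e lay above all mock libraries for 16 of the 17 genes, against 7.61% of all genes tested. CYP79F1, the first enzyme of the core pathway, went from 124, 122 and 118 CPM to 196, 225 and 184 CPM (0.73, SE 0.10, FDR = 1.13e-05). The activator MYB29 rose by 0.96 (FDR = 0.0329), and MYB28, the other main activator, had a value of 0.18 (95% interval -0.11 to 0.47). The 15 calls fell to no fewer than 13 under any of 15 alternative settings.

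Indolic glucosinolate genes rose in 9 of 16 cases, with a median of 0.60. CYP79B3, which turns tryptophan into its oxime, went from 29.5, 31.3 and 36.5 CPM to 55.5, 74.1 and 83.5 CPM (1.13, SE 0.14, FDR = 2.48e-06). CYP83B1, the next enzyme, rose by 0.91, and SUR1, the lyase that both branches share, by 0.73. None of the indolic activators MYB34, MYB51 and MYB122 passed. Genes of supply pathways were among the calls. Of 12 genes of sulfate activation and reduction 5 were higher, led by APK2, which makes the sulfate donor of glucosinolates (53.4, 58.3 and 58.7 CPM with mock, 107, 113 and 95.9 CPM with 2e, 0.89, SE 0.11). Of 9 genes of tryptophan synthesis 5 were higher, led by ASA1, its first committed enzyme, at 0.88 (FDR = 0.000342). That count was 2 without jaz9-1 mock replicate 1 or without jaz9-1 mock replicate 2, and 3 without jaz9-1 mock replicate 3, jaz9-1 2e replicate 1 or jaz9-1 2e replicate 2. Of 14 genes of endoplasmic reticulum bodies and myrosinases, 8 were higher. They include the glucosidases BGLU22 (0.98) and BGLU18 (0.61) and the regulator NAI1 (0.79). This count was 5 without jaz9-1 mock replicate 1, and 4 without jaz9-1 mock replicate 2 or jaz9-1 2e replicate 3.

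**Figure D2:**
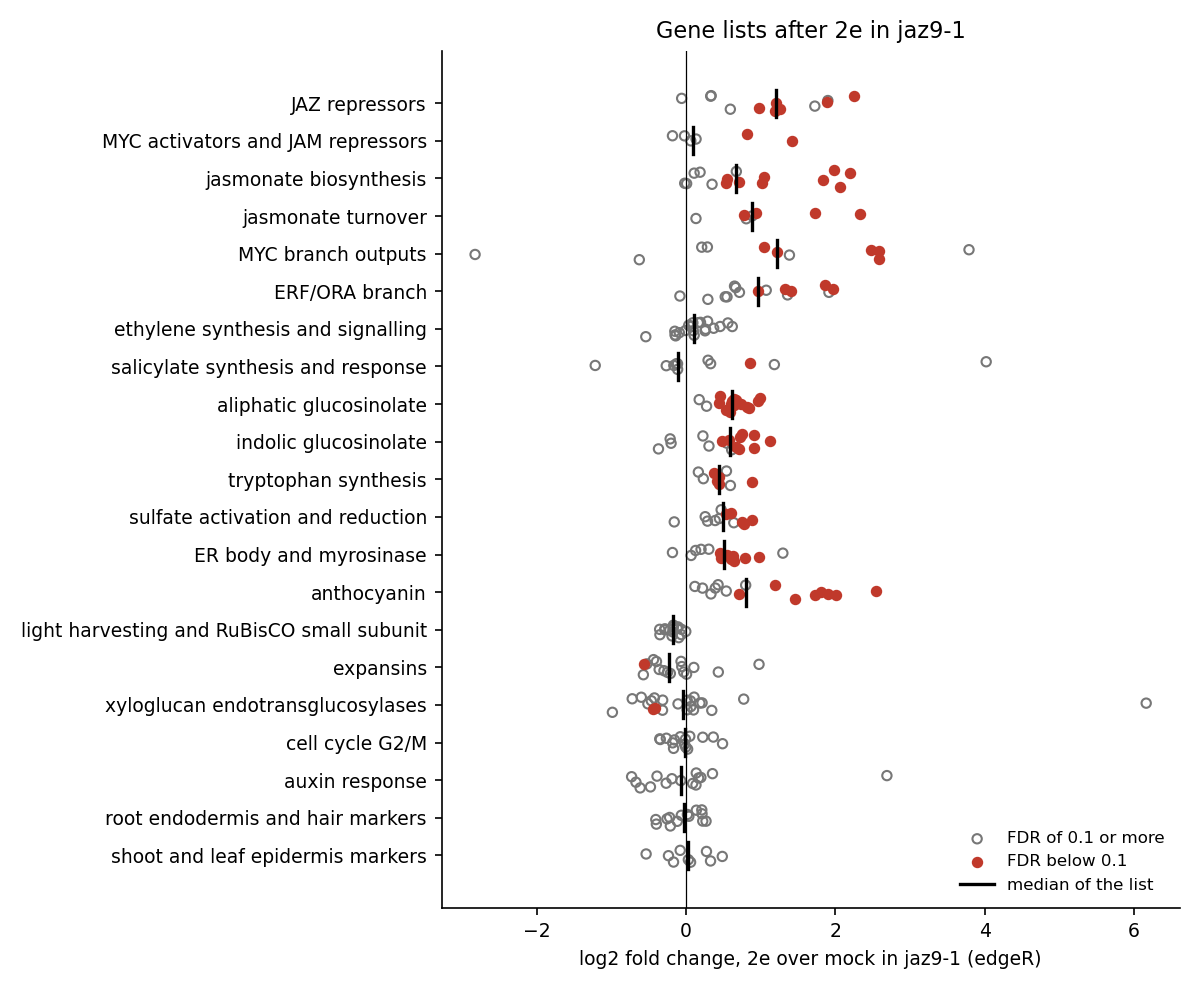
Log2 fold change of 2e over mock in jaz9-1 for each tested gene of 21 lists, with filled red points below an FDR of 0.1 in edgeR, open points at or above it, and a black bar at the median of the list. Of the aliphatic glucosinolate genes 15 of 17 are filled and to the right of 0, while none of the 20 ethylene genes is filled.

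Anthocyanin genes, for the red pigments of stressed seedlings, rose in 8 of 15 cases, 6 of them at least 2.5-fold. MYB75, the activator of the pathway, went from 1.59, 1.28 and 1.34 CPM to 6.51, 6.21 and 11.6 CPM (2.55, SE 0.41, FDR = 0.000135). LDOX, a late enzyme, stood at 15.9, 14.1 and 19.9 CPM with mock and at 36.4, 58.3 and 104 CPM with 2e (2.01, SE 0.35, FDR = 0.000428), so its libraries with 2e spread almost 3-fold. DFR, UF3GT, TT7 and the vacuolar carrier TT19 rose by 1.90, 1.73, 1.2 and 1.46. CHS, the first enzyme of all flavonoids, had 342 CPM with mock and 398 CPM with 2e on average, and its change of 0.22 did not pass (95% interval -0.26 to 0.71). The count of 8 was 4 without jaz9-1 mock replicate 2 and 3 without jaz9-1 2e replicate 3.

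Among genes whose mean level was at least 1 log2 CPM and whose groups were apart, AT1G73325, a Kunitz-type protease inhibitor gene, had the largest called rise. It stood at 1.3, 0.526 and 0.863 CPM with mock and at 8.94, 9.63 and 8.43 CPM with 2e (3.44, SE 0.32, FDR = 1.05e-08). AT1G15125, annotated as a methyltransferase, went from 0.579, 0.752 and 0.767 CPM to 8.36, 7.95 and 5.79 CPM (3.35, SE 0.37). Both groups were tight for these genes. CYP710A4, a sterol desaturase, rose by 2.88, AT2G34810, a berberine-type oxidase, by 2.43, the homocysteine methyltransferase HMT3 by 2.31 and the hydroperoxide lyase gene HPL1 by 2.27. AT5G05600, a 2-oxoglutarate-dependent oxygenase gene, rose from 12.4, 16.0 and 16.7 CPM to 92.1, 99.2 and 86.5 CPM (2.60, SE 0.13, FDR = 4.31e-15). DIR5, a dirigent protein gene, rested on 1 library, with 15, 3.63 and 2.25 CPM under 2e, and its call was lost without jaz9-1 2e replicate 1 (FDR = 0.569), and also without jaz9-1 mock replicate 1 or 3 (FDR = 0.221 and 0.217).

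Another 5 upregulated genes had 0 counts in every mock library and were named after their values were seen. JMT, which methylates jasmonate into its volatile ester, had 12, 3 and 15 counts with 2e, at least 7.22-fold above the limit of 3 counts over the 3 mock libraries. AT5G43570, a protease inhibitor gene, had 7, 8 and 16 counts, at least 7.46-fold above that limit. AT2G45360 had 3, 7 and 17 counts. AT1G55365 and AT3G16610 had most of their counts in replicate 2, with 42 and 31.

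Lower genes were fewer and moved less. GASA6, a gibberellin-regulated peptide gene tied to cell elongation, stood at 69.2, 135 and 76.7 CPM with mock and at 40.5, 45.1 and 39.0 CPM with 2e (-1.18, SE 0.24, FDR = 0.00377). Its call was lost without jaz9-1 mock replicate 2 (FDR = 0.119). The 3 downregulated genes were AT3G50430, annotated as a golgin (-1.51), AT5G26749, a zinc finger gene (-1.51), and AT1G65490, which has no annotated name (-1.43). AT5G26749 went from 7.53, 7.89 and 6.90 CPM to 2.33, 2.30 and 3.15 CPM. AT3G50430 lost its call without each library in turn except jaz9-1 mock replicate 2 (FDR from 0.165 to 0.325). AT1G65490 lost it without jaz9-1 mock replicate 1 or 2 or jaz9-1 2e replicate 2 (FDR from 0.147 to 0.169). The count of 3 was 13 without jaz9-1 2e replicate 1. Further down the list came the desaturase ADS1 (-1.01), the aquaporin TIP2;3 (-0.95), DIR1, a lipid transfer protein of systemic immunity (-0.93), and the floral factor SEP3 (-0.83). ADS1 lost its call without jaz9-1 mock replicate 1 or 2e replicate 2, and DIR1 without mock replicate 2 or 2e replicate 3. TIP2;3 lost it without mock replicate 2 or 2e replicate 2 or 3, and SEP3 without mock replicate 1 or 2 or 2e replicate 3. These FDR values ran from 0.109 to 0.31.

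On the cell wall lists the called genes were all lower, and more genes had a low unadjusted p. Of all genes tested 0.244% were lower, a smaller share than on either list. Among 16 expansins, which loosen cell walls, EXPA15 alone was lower (-0.56, FDR = 0.0677), with 54.0, 30.9 and 45.6 CPM under mock and 25.7, 30.7 and 31.6 CPM under 2e, and among 22 xyloglucan endotransglucosylases XTH4 (-0.42) and XTH8 (-0.44) were lower. Each of these calls was lost without at least 4 of the 6 libraries in turn. At an unadjusted p below 0.05 were 4 of the 16 expansins and 10 of the 22 xyloglucan endotransglucosylases, against 1933 of all 20109 genes. With no count filter 2 and 6 genes of these lists were called lower. EXLA2 stood at 14.6, 15.2 and 11.9 CPM with mock and at 9.81, 7.74 and 10.5 CPM with 2e, and its value of -0.57 did not pass (95% interval -1.01 to -0.13, FDR = 0.293). XTH23 and XTH19 did not pass either, at -0.60 (95% interval -1.09 to -0.11) and -0.42 (-0.97 to 0.12). None of 16 light harvesting and RuBisCO small subunit genes was called by edgeR or DESeq2, but all 16 values lay below 0, 6 had an unadjusted p below 0.05, and 9 had all 2e libraries below all mock libraries, against 6.32% of all genes. Their median was -0.17. None of the 15 G2/M cell cycle genes, 15 auxin response genes and 13 clock genes passed with edgeR or DESeq2, with 0, 1 and 2 at an unadjusted p below 0.05 and medians of -0.02, -0.07 and 0.04. On the salicylate list EDS5, a transporter needed for salicylate synthesis, rose by 0.86 (FDR = 0.00318) as the only call of 11, and PR1 was at most 0.192 CPM in any of the 6 libraries.

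A few calls lay on other lists. WRKY18, a defence regulator, rose by 1.02 as the only one of 17 WRKY genes. Of 8 genes of hydroxycinnamic amide and agmatine metabolism 3 were higher, AACT1, the arginase ARGAH2 (0.94) and ADC2 (0.54), an arginine decarboxylase. Of 27 glutathione transferases 2 were higher, GSTF6 (0.85) and TT19. Of 12 cold and abscisic acid genes COR47, a dehydrin gene, was lower (-0.38, FDR = 0.0934), a call that was lost without jaz9-1 2e replicate 1 or 3 or any 1 mock library (FDR from 0.107 to 0.367). Of 8 heat shock genes 0 passed with edgeR or DESeq2 (3 at an unadjusted p below 0.05), and of 8 reference genes 0 (2 at an unadjusted p below 0.05).

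The same treatment of Col-0, which shares no library with jaz9-1, gave 484 higher (2.41%), 69 lower (0.343%) and 122 upregulated genes (0.607%). Of the 80 genes upregulated in jaz9-1, 47 were upregulated in Col-0 as well, which is 58.8% of the first list and 38.5% of the second. Of the 348 higher genes 261 were higher in Col-0 (75% and 53.9%), and 0 were lower there. Of the 49 lower genes 6 were also lower in Col-0 (12.2% and 8.7%), and 39 had a value of the same sign there, with a median of -0.29. JAZ1 rose by 1.72 in Col-0 and 1.88 in jaz9-1, a difference of 0.17 that did not pass (95% interval -0.12 to 0.45). MYC2 rose by 1.39 in Col-0, with a difference of 0.03 (95% interval -0.33 to 0.39), and AOS by 2.14, with a difference of -0.07 (95% interval -0.41 to 0.26).

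The difference between the responses, that of jaz9-1 minus that of Col-0, was tested for every gene in the same model. With edgeR 0 genes passed (0%), 871 genes had an unadjusted p below 0.05 where 1005 would be so if no gene differed, and with DESeq2 10 genes passed. The lowest FDR of edgeR was 0.104, shared by 6 genes. PDF1.3 had the largest difference of the 6, at -4.49 (95% interval -6.20 to -2.78). In Col-0 it went from 0.479, 0.446 and 0.662 CPM to 38.3, 30.8 and 69.5 CPM, while no jaz9-1 library with 2e was above 2.59 CPM. All 6 genes were among the DESeq2 calls, at FDR values from 0.00049, for PDF1.3, to 0.0138. With organelle genes left out, all 6 passed in edgeR too (FDR = 0.0951). AT3G23550, a MATE efflux carrier gene, rose by 1.85 in jaz9-1 and by 4.46 in Col-0. The phospholipase PLA2A and AT1G78460, a SOUL heme-binding family gene, passed in Col-0 (3.53 and 1.03) and not in jaz9-1 (0.76 and 0.17). CYP79F1 began at 54.4, 40.4 and 47.2 CPM in Col-0 with mock and reached 130.4, 127 and 127 CPM with 2e, so its mock level was lower there than in jaz9-1 and its rise was larger (1.43 against 0.73). Of the 6, only AT4G37850 leaned the other way, with 1.59, 0.902 and 0.288 CPM in mock jaz9-1 and 6.80, 6.49 and 7.08 CPM with 2e. In Col-0 it already stood at 3.74, 6.47 and 3.06 CPM with mock and stayed at 5.07, 8.35 and 3.13 CPM with 2e. AT3G23550, PLA2A and AT1G78460 were named after their values were seen.

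Other ERF/ORA genes had large differences that did not pass in edgeR over all libraries with the count filter. ORA59 reached 58.4, 44.5 and 61.3 CPM with 2e in Col-0, above all jaz9-1 libraries, from a mock level of 6.80, 9.26 and 7.18 CPM that overlapped that of jaz9-1. The difference was -1.43 (95% interval -2.28 to -0.58, FDR = 0.744), and it passed with no count filter (FDR = 2.39e-05). AACT1 reached 82.5, 57.4 and 101 CPM in Col-0 and differed by -2.52 (95% interval -3.62 to -1.42, FDR = 0.153), and PDF1.2 differed by -3.93 (FDR = 0.464). PDF1.2 passed with DESeq2 (-3.80, FDR = 0.0615) and with no count filter (FDR = 3.37e-14). AACT1 passed with no count filter (FDR = 5.83e-14), without Col-0 2e replicate 2 (FDR = 0.0569), without jaz9-1 mock replicate 1 (FDR = 0.0545) and without jaz9-1 2e replicate 1 (FDR = 0.0133). On the ERF/ORA list the median response was 0.96 in jaz9-1 and 2.07 in Col-0, with 5 and 11 of 15 genes higher. On the list of JAZ repressors the medians were 1.2 and 1.23, and on that of aliphatic glucosinolate genes 0.61 and 0.60. JAZ9 itself differed by -1.18 (95% interval -1.85 to -0.51, FDR = 0.717), and it passed with no count filter (FDR = 0.0198). With no count filter the differences were -1.43 for ORA59, -3.93 for PDF1.2, -2.52 for AACT1 and -1.18 for JAZ9. Their sizes thus stayed as they were with the filter and only the FDR moved, for a cause that was not tested.

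**Figure D3:**
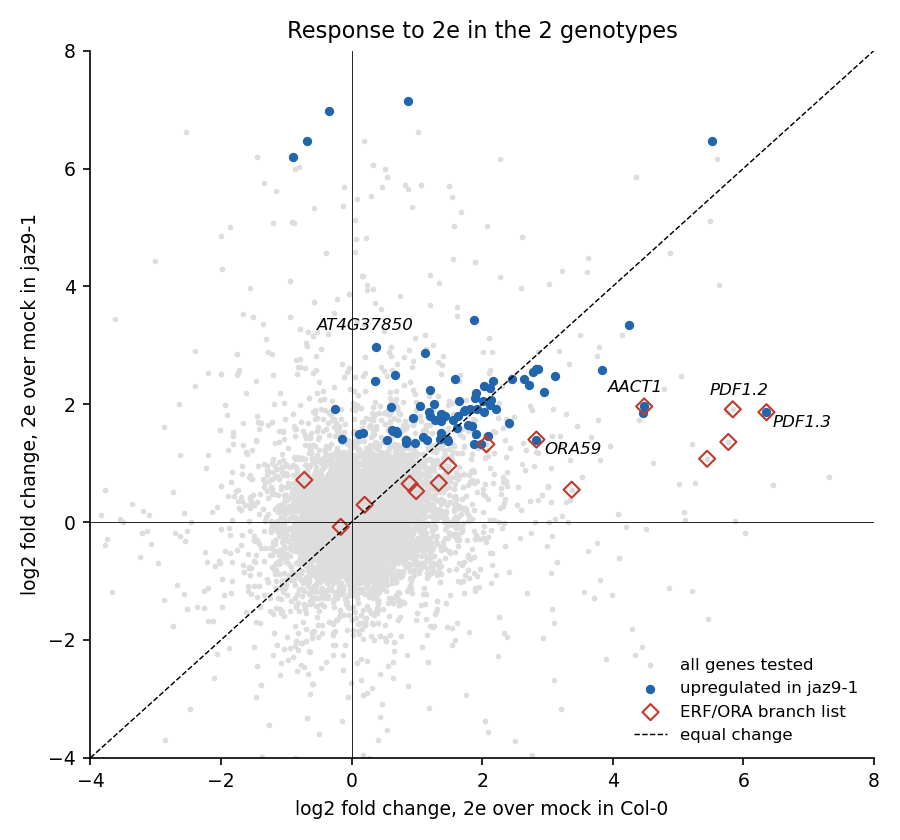
Log2 fold change of 2e over mock in Col-0 (horizontal) and in jaz9-1 (vertical) for the genes tested, with the 80 genes upregulated in jaz9-1 in blue, the ERF/ORA list as red diamonds, and a dashed line of equal change, and 37 genes outside the range shown. PDF1.3 lies far to the right of the line (6.36 and 1.87), and AT4G37850 lies above it (0.37 and 2.96).

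Coronatine gave a far wider response in jaz9-1 than its stereoisomer. Against the same mock libraries, 2 made 3006 genes higher (14.9%) and 2859 lower (14.2%). Tested against each other, in libraries that share nothing, 2444 genes were higher with 2e than with 2 (12.2%) and 2683 were lower (13.3%). Over the 80 genes upregulated by 2e, which were chosen against these mock libraries, the median log2 fold change was 1.89 with 2e and 3.99 with 2, and 60 of the 80 were lower with 2e than with 2. Among the lists, the median difference was lowest for the MYC outputs, at -4.84. VSP1, at 0.29 with 2e, was at 6.93 with 2, a difference of -6.64 (95% interval -7.04 to -6.24). JAZ1, AOS and LOX2 differed by -2.22, -3.37 and -3.32, and LOX2 reached 5706 to 6935 CPM with 2.

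Some of the 348 higher genes, which were chosen from the same 2e libraries, ran against this order. With 2e against 2, 30 of the 348 were higher, a smaller share than the 12.2% of all genes tested. Lower were 267 of the 348, a larger share than the 13.3% of all genes. Of the 17 aliphatic glucosinolate genes 12 were higher with 2e than with 2 and 1 was lower (SOT17). CYP79F1 stood at 70.2, 55.1 and 57.3 CPM with 2, below every mock library, and differed from 2e by 1.72 (95% interval 1.51 to 1.93, FDR = 1.29e-14). IPMI2, an isomerase subunit of methionine chain elongation, differed by 1.56. With 2, 6 genes of this list were higher and 6 lower than with mock. The indolic list went the other way, with 11 of 16 genes lower with 2e than with 2 and 1 higher, the hydroxylase CYP81F2 (1.71). On the ERF/ORA list 5 genes were higher with 2e than with 2, namely ORA59 (0.69, FDR = 0.0954), ERF2 (1.73, FDR = 1.41e-05), ERF5 (1.33), HCHIB (0.80) and AACT1 (0.93, FDR = 0.0673). PDF1.2 and PDF1.2c were lower (-2.26 and -3.16).

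**Figure D4:**
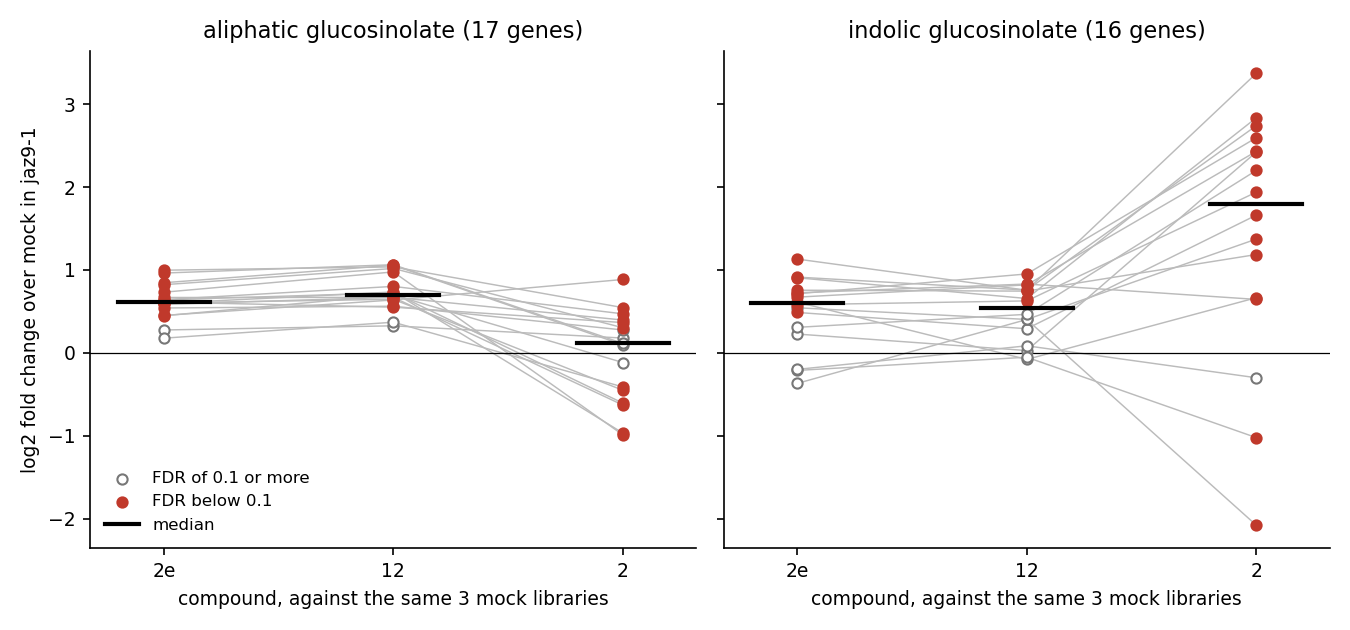
Log2 fold change over mock in jaz9-1 of aliphatic (left, 17 genes) and indolic (right, 16 genes) glucosinolate genes with 2e, 12 and 2, where each line is a gene, filled red points are below an FDR of 0.1 and black bars are medians. The 3 columns of a panel share the mock libraries, and the aliphatic medians are 0.61, 0.70 and 0.11 while the indolic ones are 0.60, 0.55 and 1.80.

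Cell wall genes stood apart between 2e and 2 as well. EXLA2 was higher with 2e than with 2 by 1.90 (95% interval 1.39 to 2.41, FDR = 5.38e-07), XTH19 by 2.18 and XTH23 by 0.67 (FDR = 0.0621). Of the 22 xyloglucan endotransglucosylases 14 were higher with 2e than with 2 and 1 was lower. With 2, 14 of them were lower than with mock, beside the 2 that were lower with 2e. The 16 expansins were mixed, with 9 higher and 5 lower with 2e than with 2.

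The derivative 12 was compared in the same way. Against the mock libraries that also serve 2e, 12 made 405 genes higher (2.01%) and 97 lower (0.482%). Tested directly, 11 genes were higher with 2e than with 12 (0.0547%) and 2 were lower (0.00995%). The count of 13 (0.0646%) ranged from 2, without jaz9-1 12 replicate 1 or 3, to 26, without jaz9-1 2e replicate 2, and was 5 without jaz9-1 2e replicate 3. For JAZ1, MYC2 and ORA59 the differences were -0.06, 0.14 and -0.06, with 95% intervals of -0.25 to 0.13, -0.10 to 0.38 and -0.62 to 0.50. LOX2 was lower with 2e than with 12 (-0.63, 95% interval -0.88 to -0.38, FDR = 0.0594), and so was AT1G51400, a photosystem II protein gene (-0.52, FDR = 0.0594).

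Of the 15 anthocyanin genes 4 passed. F3H, an early enzyme, was at 58.6, 91.2 and 85.2 CPM with 2e and at 36.9, 35.4 and 32.4 CPM with 12 (1.17, FDR = 0.0318). LDOX was at 36.4, 58.3 and 104 CPM with 2e and at 15.1, 37.8 and 12.1 CPM with 12 (1.68, FDR = 0.0594), where the groups overlapped. AT4G14090, annotated as an anthocyanin glucosyltransferase, and TT19 differed by 1.77 and 1.48. MLS, the malate synthase of the glyoxylate cycle by which seedlings use stored oil, was at 37.5, 39.7 and 58.6 CPM with 2e and at 2.45, 2.41 and 3.84 CPM with 12 (3.96, SE 0.45, FDR = 9.95e-06). Its partner ICL, isocitrate lyase, differed by 2.37 (FDR = 0.0353), and the protease CP1 by 2.70. AT2G47780, a rubber elongation factor family gene, was at 34.6, 41.4 and 95.8 CPM with 2e and at 3.40, 3.68 and 2.77 CPM with 12 (4.14, FDR = 0.000249). The mock libraries of MLS lay between, at 18.2, 7.67 and 35.6 CPM, and 2e was not called against them (1.15, FDR = 0.173). In Col-0, MLS was at 2.30, 7.47 and 5.55 CPM with mock and at 3.03, 6.34 and 3.04 CPM with 2e. MYB113 (3.96), ELIP1 (1.89) and AT5G46960 (3.05) complete the 11 genes and were named after their values were seen.

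**Figure D5:**
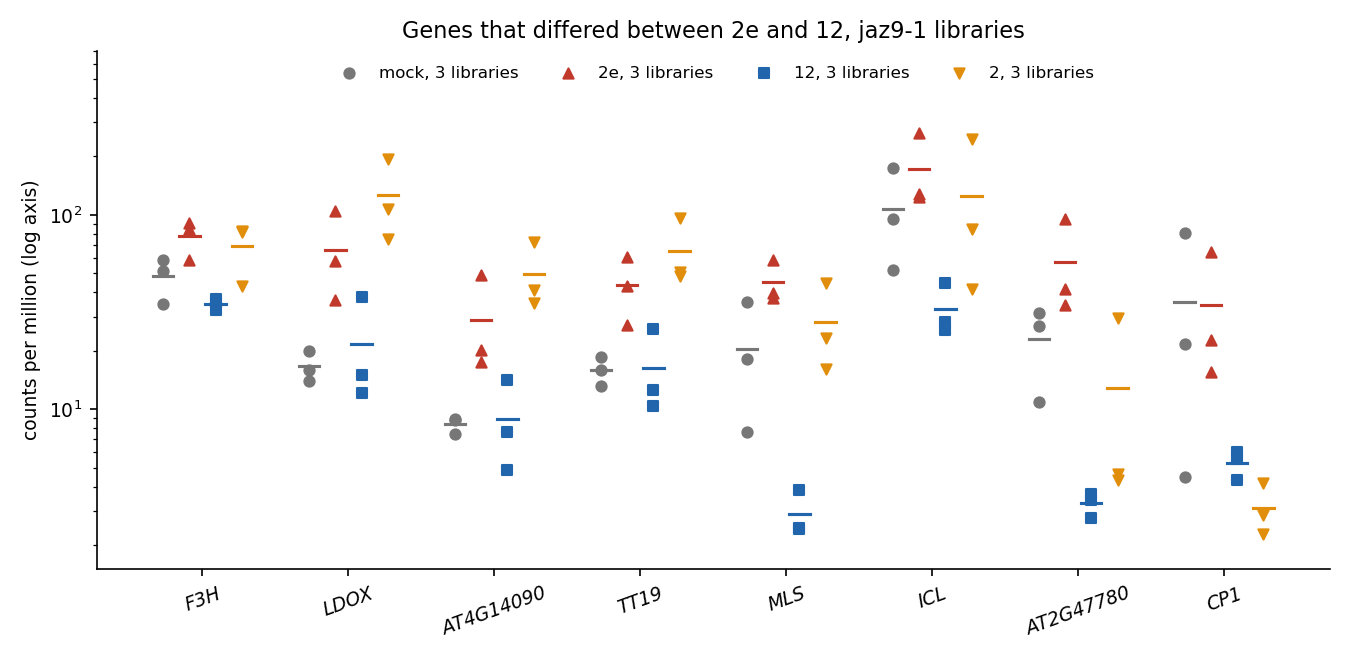
Level of 8 genes that were higher with 2e than with 12, in CPM on a log axis, in the 12 jaz9-1 libraries, with bars at group means. For MLS the 3 libraries with 12 sit at 2.41 to 3.84 and those with 2e at 37.5 to 58.6, with the mock libraries spread from 7.67 to 35.6.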

How the data were processed

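Whole seedlings were sequenced by Lasy-Seq according to the study's methods, while the labels also name a TruSeq kit. Reads had been cleaned (Trimmomatic 0.39) and placed on the genome (HISAT2 2.2.1), and the authors deposited raw counts per gene from featureCounts 2.0.1 on strand setting 1, with an overlap fraction of at least 0.5 and with reads counted for every gene that meets it. A deposited table of counts divided by size factors, with 8 unnamed values per row, was not used. The labels name TAIR10. Names, starts and promoters come from RefSeq TAIR10.1, in which 26719 of 27416 identifiers have an entry.

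The deposited counts went into edgeR 4.0.16 under R 4.3.3: filterByExpr, TMM factors, 1 coefficient per group over all 24 libraries, the quasi-likelihood F-test and Benjamini-Hochberg adjustment over all tested genes. CPM are TMM-scaled, and values in brackets without another word are log2 fold changes. Members and lists were chosen with earlier results of these data known, and 407 of 417 list entries matched a gene. Named genes are those of the study, up to 4 called per list, up to 15 per direction with the largest change (mean of at least 1 log2 CPM, no overlap) and up to 6 per direction in the other comparisons. Further list members (JAZ3, JAZ7, JAZ8, JAZ10, COI1, CUL1, SKP1, NINJA, MYC3, MYC4, OPR3, OPCL1, JAR1, ERF5, HCHIB, PDF1.2c, MYB28, MYB29, MYB34, MYB51, MYB122, CYP81F2, SOT17, DFR, UF3GT, TT7, CHS and PR1) were named after their values were seen. Alternatives were DESeq2 1.42.0, RLE factors, no count filter, a replicate block, no organelle genes, an FDR of 0.05, the 6 libraries alone, thinning to equal depth, and leaving out each library. The code was tested on simulated data. The study calls the replicates independent, the labels do not say from which cultures they came, and p-values measure the spread between these libraries, which may be technical. Bounds against groups at 0 cover counting error only.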

Additional observations from a re-analysis of the deposited data

Results flagged for a closer look

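AT5G26749, the zinc finger gene, was flagged because its libraries with 2e lay on opposite sides of the mock libraries in the 2 genotypes. Every jaz9-1 library with 2e lay below the jaz9-1 mock libraries, and every Col-0 library with 2e lay above the Col-0 mock libraries (3.93, 3.24 and 3.92 CPM with mock, 4.28, 4.66 and 5.46 CPM with 2e). The difference of the log2 fold changes was -1.88 and did not pass edgeR's test of the difference (FDR = 0.533). The rise in Col-0 was not called, since 0 of the 49 genes lower in jaz9-1 were called higher in Col-0. In jaz9-1, 6.32% of all genes tested had every 2e library below every mock library. The call of AT5G26749 in jaz9-1 was lost at equal depth (FDR = 0.455).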

How the results depend on the processing

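Against 348 higher, 49 lower, 80 upregulated and 3 downregulated genes, DESeq2 (with and without its filter) gave 87 lower and 14 downregulated genes, and no count filter gave 538 higher, 144 lower and 8 downregulated. An FDR of 0.05 gave 17 lower genes, and equal depth gave 18. Leaving out each library gave 257 to 340 higher, 21 to 56 lower, 68 to 96 upregulated and 2 to 13 downregulated genes. The difference between genotypes, with 0 genes, gave 10 with DESeq2, 78 without a count filter, 6 without organelle genes, and 0 to 9 without single libraries, 9 of them without Col-0 2e replicate 2, 6 without jaz9-1 2e replicate 1, 5 without jaz9-1 mock replicate 1 and 4 without jaz9-1 2e replicate 2. The 13 genes that differed between 2e and 12 became 162 without a count filter, 4 at an FDR of 0.05, and 2 to 26 without single libraries. Without single libraries, 2e against 2 gave 1869 to 2839 higher and 2238 to 2921 lower genes. Fewer samples or a changed threshold enter some of these counts by construction, and otherwise the cause was not tested. ERF1, near 0 counts, moved between -1.07 and 6.45 without single libraries (-0.01 without jaz9-1 mock replicate 3), and its genotype difference between -4.77 and 3.08. Of 88 named genes called, 58 kept the call without each single library and 30 lost it at least once.

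The replicate numbers are shared by the groups but did not pair the samples: the deviations of same-numbered libraries from their group means correlated at -0.02, 0.00 and 0.03. With the replicate number as a block, 352 genes were higher, 56 lower and 79 upregulated, and 1 gene differed between genotypes, PDF1.3 (FDR = 0.076). Low counts limit the smallest genes, whose level rests on a few reads per library.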

Other observations

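The mock libraries of the genotypes stood apart for several of the genes that separated 2e from 12 in jaz9-1. ICL was at 95.4, 52.3 and 175 CPM in mock jaz9-1 and at 22.8, 30 and 17.1 CPM in mock Col-0. AT2G47780 was at 26.8, 10.9 and 31.3 CPM in mock jaz9-1 and at 0.958, 2.45 and 1.99 CPM in mock Col-0, and LDOX was at 15.9, 14.1 and 19.9 CPM against 2.87, 7.14 and 4.18 CPM. The mock jaz9-1 libraries lay above the mock Col-0 libraries in all 9 pairings for each of these genes, and the difference of the mock groups was not tested. These values are described for genes picked after their values were seen.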
